A study of Mus musculus with 2 samples.

Results

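The SOCS cytokine feedback genes are the 8 genes of the suppressor of cytokine signalling family, Socs1 to Socs7 and Cish, taken here with Stat3 and Il6st, the transcription factor and the shared receptor chain of the pathway they restrain. Binding of the histone methyltransferase KMT2D was read around these 10 genes in the HT22 line, which derives from mouse hippocampus and is immortalised. A peak was taken as belonging to a gene when its summit lay inside the gene or within 100 kb of it on the mouse build mm10, and 23 of the 3738 peaks in the deposited list met this rule. The genes were chosen by name and with their peak counts already known, and the peaks were selected on the deposited calls, so numbers and strengths are given as a description with no test. Chromatin came from a wild-type clone grown to 70% confluency, and the study made 1 library by precipitation with an antibody to KMT2D and 1 input library of the same genotype. Cells lacking the SET domain of KMT2D belong to the study's design and are not analysed here. There were no replicates, and RNA was not measured, so neither the level of these genes nor the identity of the line could be read from these values.

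Cytokines of the interleukin-6 family bind receptors that share the gp130 chain, encoded by Il6st. JAK kinases attached to gp130 then phosphorylate STAT3, which enters the nucleus and activates genes, among them Socs3. SOCS proteins close the loop: their SH2 domain docks on activated receptors or kinases, and their SOCS box recruits a ubiquitin ligase built on elongins and a cullin. KMT2D adds methyl groups to lysine 4 of histone H3 and is known mainly for its work at enhancers, many of which lie far from the gene they control.

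KMT2D peaks crowded around Socs3 and Socs5 and were fewer or missing around the other 8 genes. Socs3 had 8 peaks and Socs5 had 7, together 15 of the 23. Socs4 and Socs7 had 2 each, and Socs1, Socs2, Cish and Stat3 had 1 each. Socs6 and Il6st had none. Thus 8 of the 10 genes had at least 1 peak, where 35.8% of the 21774 protein-coding genes had one by the same rule. A count of 8 or more was reached by 0.400% of protein-coding genes, and of 7 or more by 0.620%, while 17.2% had 2 or more. The median was 1 peak per gene among the 10 genes and 0 among all protein-coding genes. Il6st fell just outside the rule, with its nearest summit at 100.6 kb, and the farthest peak counted for Socs5 fell just inside, at 99.5 kb.

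**Figure D1:**
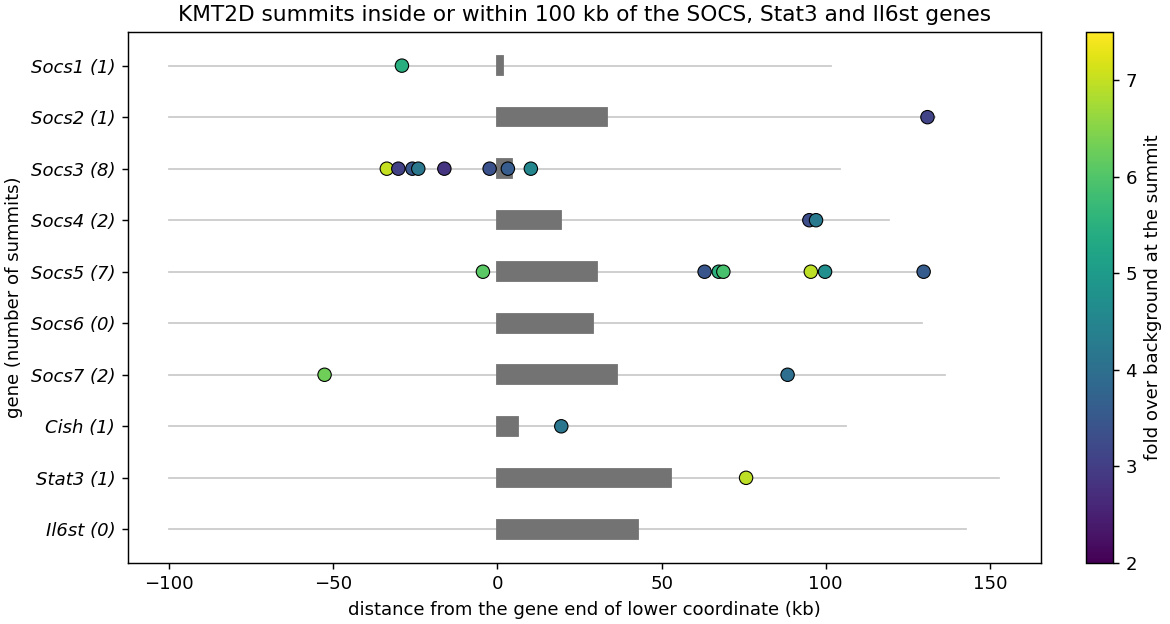
Position of every KMT2D summit (points, coloured by fold over background) relative to each gene (dark bars, to scale), with distance in kb from the gene end of lower coordinate on the horizontal axis and the searched window as a grey line. The 8 summits of Socs3 sit close to the gene, the 7 of Socs5 mostly beyond 1 of its ends, and Socs6 and Il6st have none.

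**Figure D2:**
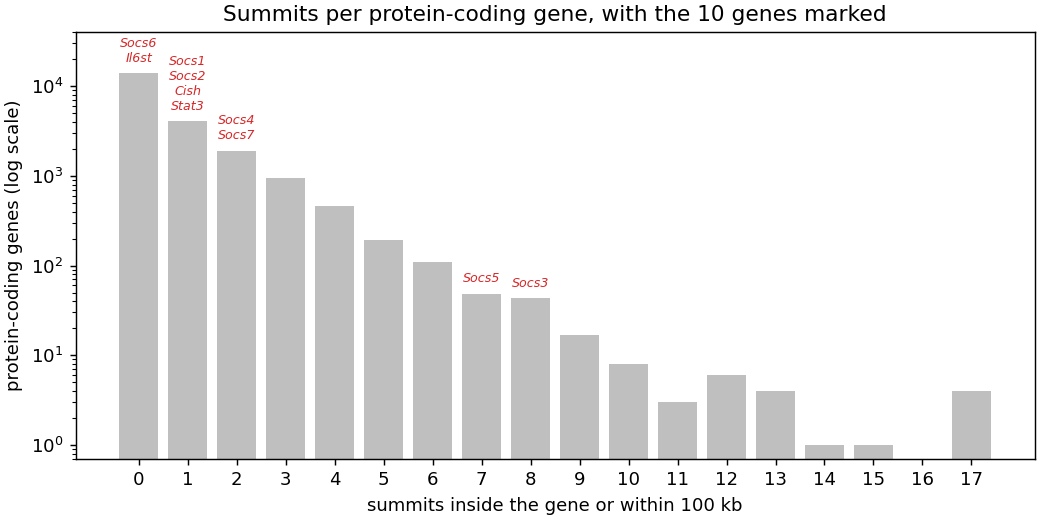
Number of summits inside or within 100 kb of each protein-coding gene (horizontal axis) against the number of genes (log scale), with the 10 genes named in red above their bar. Socs5 at 7 and Socs3 at 8 lie in the thin tail, and the other 8 genes lie at 0, 1 or 2.

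Socs3 was the only one of the 10 genes with a summit inside it, and that peak reached into its listed promoter window. RefSeq (GRCm38.p6, the build that mm10 names) places Socs3 on the minus strand of chromosome 11 and gives a promoter window whose gene start is at position 117969366. This start lies inside the gene span used for the counts, whose upstream end is at 117970336. The 250 bases before the start therefore lie inside that span as well. The peak spanned chromosome 11: 117969128 to 117969430, and its summit lay 124 bp downstream of the listed start. The same summit was 1094 bp from the nearer end of the gene span. The peak covered 64 of the 250 bases before the listed start. These 250 bases are shown in the direction of transcription because they are the only stretch of promoter of the 10 genes under a KMT2D peak among the 6 genes with a promoter in the table, with the bases under the peak in capitals.
Socs3, chr11:117969367-117969616, minus strand: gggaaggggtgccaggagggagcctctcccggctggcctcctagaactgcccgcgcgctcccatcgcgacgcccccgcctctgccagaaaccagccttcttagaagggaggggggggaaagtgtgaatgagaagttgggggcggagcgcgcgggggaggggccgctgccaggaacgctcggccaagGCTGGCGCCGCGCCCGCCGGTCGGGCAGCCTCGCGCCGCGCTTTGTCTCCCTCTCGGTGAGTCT
The window of 300 bases around the start held 73.3% G or C and 31 CpG dinucleotides, against medians of 56.3% and 13 in the promoters of 17492 protein-coding genes.

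The letters of a STAT recognition site were looked for in the same 300-base windows, as TTCNNNGAA on both strands. Of the 6 genes with a promoter in the table, Socs3 and Cish had a match, and Socs1, Socs4, Stat3 and Il6st had none, where 7.83% of the protein-coding promoters had one. Cish, the family member first described as a STAT5 target, had 2 matches, at its start and just past it. The match of Socs3 lay 154 bases before its listed start, outside the part covered by the peak. It was still inside the gene span, which extends further upstream. The window ends 50 bases past the start, so the rest of the peak, with its summit 124 bp downstream, was not searched. STAT binding is the known route to induction of both genes, but whether it uses these matches was not tested. The 3 matches are shown each with 8 bases on either side and the match in capitals.
Socs3, 154 bases before the start: aaccagccTTCTTAGAAgggagggg
Cish, first match: gcccagttTTCCTGGAAagttcttg
Cish, second match: ctggaaagTTCTTGGAAatctgtca
The stricter form TTCCNGGAA, which overlaps the first, was found in these windows at the first of the Cish matches alone. It was in 1.17% of all promoters. No peak lay at the Cish promoter. The AP-1 letters TGANTCA and the E-box CACGTG were in none of the 6 windows, against 7.08% and 7.90% of all promoters. The GC box GGGCGG was in all 6, and in 46.3% of all promoters. A match describes letters and not a bound site. Socs2, Socs5, Socs6 and Socs7 are not in the table.

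The 8 Socs3 peaks formed 1 tight group. Their summits spanned 43.9 kb, with neighbours 1.8 to 13.8 kb apart. Of the 2816 groups that the summits of all chromosomes form when gaps of up to 20 kb are joined, 7 (0.249%) held 8 or more. Socs3 was the nearest protein-coding gene to all 8 summits. Only 3 protein-coding genes (0.0138%) were nearest to 8 or more, the other two, named after their values were seen, being Irf2bp2 and Gm52481. The lncRNA gene Gm11725 was nearer than Socs3 to the 2 farthest summits.

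The 6 peaks downstream of Socs3, past the finish of the gene, made up most of the group. The farthest, 33.7 kb downstream at chromosome 11: 117932153 to 117932603, carried 59 ChIP fragments over a background of 7.55. Its fold over background was 7.02 (95% Poisson interval 5.37 to 9.02), and 12.6% of all peaks in the list had a higher fold. This was the highest fold near any of the 10 genes, but within counting error of the highest at Socs5 and Stat3, 6.95 at each, and by −log10 q a Socs5 peak came first (27.9 against 27.7). A background is the number of fragments that the peak caller expected at a summit, solved here from the deposited fold and p-value. How the caller derived it from the input is not stated, and the interval covers counting error only.

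The next 3 downstream peaks were weaker and lay together. The peak at 30.2 kb had 22 fragments and a fold of 3.07 (1.98 to 4.58). The peak at 25.9 kb had 19 fragments and a fold of 3.48 (2.17 to 5.34). Their neighbour at 24.1 kb had 27 fragments and a fold of 4.18 (2.80 to 6.01). All 3 intervals overlap one another, so no order among them could be told.

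The next 3 peaks, from 16.2 kb downstream to the gene body, had the highest backgrounds of the group. The peak 16.2 kb downstream had 40 fragments over 13.4, which gave the lowest fold of the group, 2.85 (2.05 to 3.85). The peak 2.4 kb downstream had 46 fragments over 12.97 and a fold of 3.36 (2.48 to 4.46). The peak inside the gene had 42 fragments over 10.97 and a fold of 3.59 (2.61 to 4.83). At these 3 summits the background was above 10 fragments, while at the other 5 it ran from 4.74 to 7.55. Its part in their low folds was not tested.

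A single Socs3 peak lay upstream, 5.9 kb before the gene, at chromosome 11: 117976070 to 117976376. It had 35 fragments and a fold of 4.55 (3.21 to 6.27), the second highest of the group. The interval of the strongest peak lay above those of 5 of the other 7 and overlapped those of the peaks at 24.1 kb downstream and 5.9 kb upstream. The group was thus many peaks of modest strength: 2 of 8 reached the median fold of all peaks, 4.45, and the Socs3 median was 3.54. The window also took in Pgs1 and the dynein gene Dnah17, for which the same 8 summits were counted, and Tha1, for which 7 of them were.

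**Figure D3:**
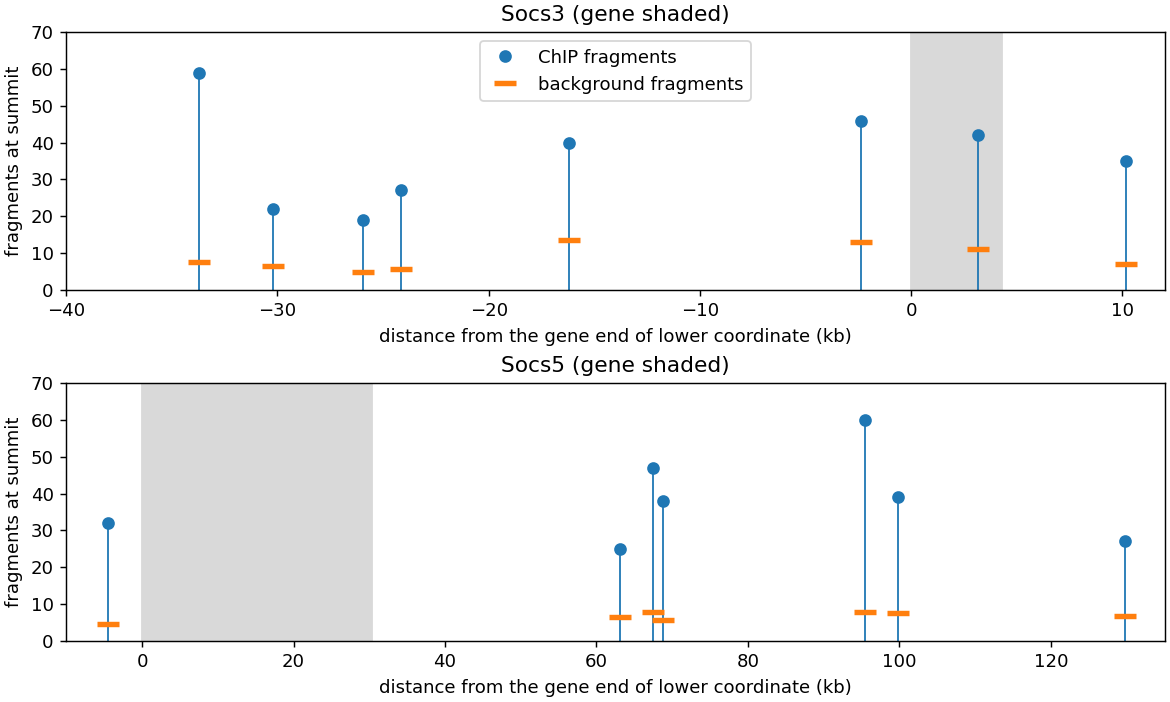
ChIP fragments (blue points) and background fragments (orange bars) at each summit around Socs3 and Socs5, against distance in kb from the gene end of lower coordinate, with the gene shaded. At Socs3 the highest ChIP count, 59, is at the far left, and background exceeds 10 at the 3 summits from 16.2 kb downstream to the gene body. At Socs5 the highest, 60, lies 65.1 kb past the gene.

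Socs5, whose product has been linked to interleukin-4 and EGF receptor signalling, had the other large set, with a looser layout. Its 7 summits spanned 134.3 kb, with a largest gap of 67.5 kb across the gene, and none lay inside it. Socs5 was the nearest protein-coding gene to 4 of them, as 0.441% of protein-coding genes were to 4 or more, and Mcfd2, which encodes a cargo receptor subunit of the secretory pathway, to the other 3. One peak lay 4.4 kb from the end of lower coordinate, at chromosome 17: 87102677 to 87102945, within the lncRNA gene Gm30510. It had 32 fragments and a fold of 6.08 (4.22 to 8.51).

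The other 6 Socs5 peaks lay on the side of higher coordinate, in the direction of Mcfd2. A run of 3 summits held the peak at 32.7 kb (fold 3.47, 2.29 to 5.06), that at 37.0 kb (5.50, 4.07 to 7.28) and that at 38.4 kb (5.89, 4.21 to 8.03). The middle one was the widest near any of the 10 genes, at 1284 bp, against a median of 296 bp in the whole list. Further out, the peak at 65.1 kb had 60 fragments, the highest Socs5 fold, 6.95 (5.33 to 8.91), and lay 3.3 kb from the lncRNA gene Gm41647. The peak at 69.4 kb (4.73, 3.40 to 6.42) lay 96 bp from the same lncRNA gene, and the last, at 99.5 kb, had a fold of 3.57 (2.40 to 5.13). Socs5 peaks reached the median fold of the list in 5 of 7 cases, and their own median was 5.50.

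Around the other 6 genes that had peaks, all 8 summits lay nearer to a different protein-coding gene. The Stat3 peak was among the strongest of the set, with 45 fragments and a fold of 6.95 (5.11 to 9.25) at chromosome 11: 100962411 to 100962870. Its summit lay 22.9 kb upstream of Stat3 but inside Cavin1, which encodes a coat protein of caveolae. The same peak was the only one counted for Stat5a, 77.4 kb away, and Stat5b had none.

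Socs1, an inhibitor of JAK kinases in interferon signalling, had 1 peak 29.1 kb downstream with 47 fragments and a fold of 5.47 (4.05 to 7.23). Clec16a was nearer to it, at 9.8 kb. Cish had 1 peak 13.3 kb downstream, nearer to Hemk1 at 11.0 kb, with the fewest fragments of the 23, 13 over a background of 2.37. Its fold of 4.15 therefore had a wide interval, 2.35 to 6.89.

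Socs2, a brake on growth hormone signalling, had 1 peak at 97.6 kb that belonged by position to another promoter. The summit lay 262 bp before the start of Ube2n, which encodes a ubiquitin-conjugating enzyme, and its fold was 3.11 (2.17 to 4.33) with 33 fragments. The 250 bases before the Ube2n start are shown to set this second promoter peak beside that of Socs3, with the 157 bases under the peak in capitals.
Ube2n, chr10:95514912-95515161, plus strand: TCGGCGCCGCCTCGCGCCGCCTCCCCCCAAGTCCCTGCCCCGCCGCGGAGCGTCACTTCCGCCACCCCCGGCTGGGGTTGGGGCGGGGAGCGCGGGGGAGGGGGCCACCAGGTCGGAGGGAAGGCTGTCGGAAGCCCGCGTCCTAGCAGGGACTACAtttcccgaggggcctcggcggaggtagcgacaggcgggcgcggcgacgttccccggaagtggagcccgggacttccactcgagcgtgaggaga
The window of 300 bases around the Ube2n start held 72.7% G or C, against 73.3% for Socs3, and had no TTCNNNGAA.

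Socs4 had 2 peaks, 75.8 and 77.9 kb downstream, with folds of 3.30 (2.23 to 4.72) and 4.23 (2.77 to 6.21). The second lay inside Lgals3, the galectin-3 gene, 108 bp past its start, and the first 1.9 kb from Lgals3 and 471 bp from the pseudogene Gm52166. Socs7 had 1 peak on each side. That at 52.7 kb had 65 fragments, the most of the 23 peaks, and a fold of 6.28 (4.87 to 7.98), and lay inside the lncRNA gene Gm31005 and 5.3 kb from Mrpl45. That at 52.1 kb lay inside Arhgap23 with a fold of 3.97 (2.66 to 5.71).

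Socs6 and Il6st stood empty. The nearest summit to Socs6 in the list lay 941.4 kb away. For Il6st, the gp130 gene, it lay inside its neighbour Ankrd55, with a fold of 3.11. Both are a lack of called peaks in 1 ChIP library, and weaker binding below the caller's threshold, where the lowest −log10 q listed was 1.32, was not detectable.

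Taken as a set, the 23 peaks were near the middle of the list in strength. Their median fold was 4.18 against 4.45 in the whole list, and 10 of 23 reached the list's median. The median peak carried 35 ChIP fragments over 6.92, against 30 over 6.05 in all peaks. Median widths were 307 and 296 bp. Within 2 kb of a gene end only Socs3 had a summit, 1 of the 10 genes, where 5.08% of protein-coding genes had one. With the list cut to peaks whose −log10 q reached its median, Socs3 had 4 and Socs5 had 5, counts reached by 1.35% and 0.661% of protein-coding genes. With the list cut to peaks whose fold reached its 75th percentile, Socs3 had 1 and Socs5 had 3, as 12.4% and 0.859% of protein-coding genes had at least. Counting each peak for its nearest protein-coding gene alone left Socs3 and Socs5, 2 of 10, against 11.0% of all protein-coding genes.

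**Figure D4:**
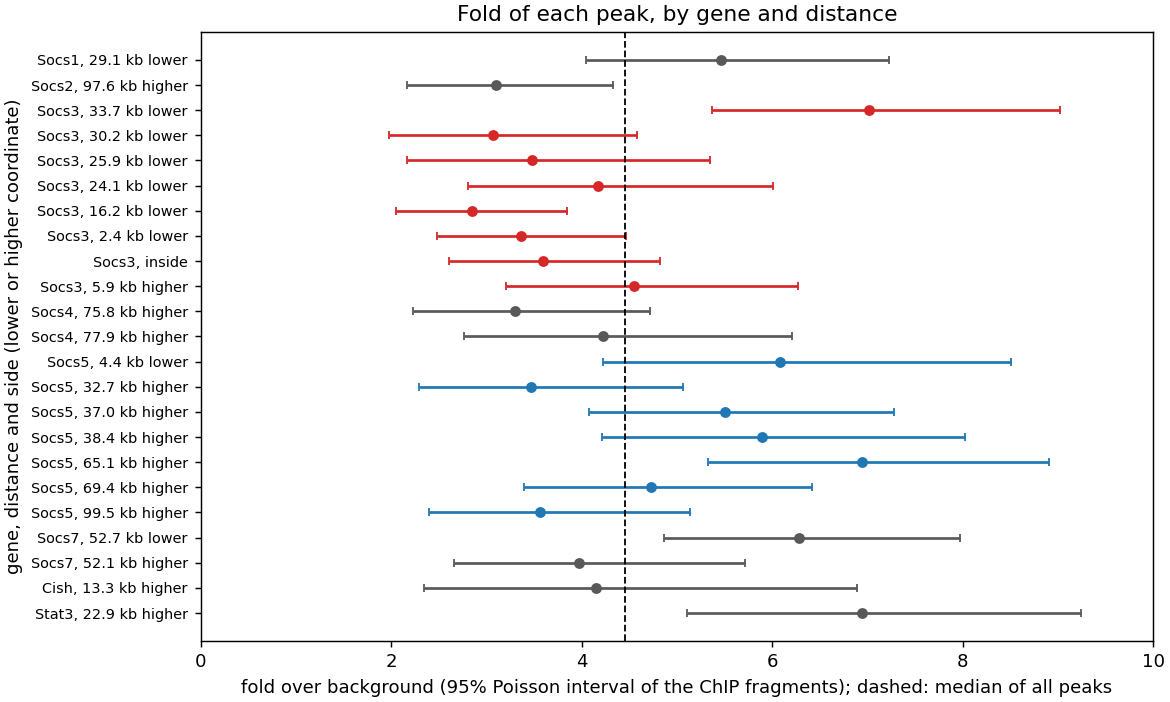
Fold over background of each of the 23 peaks (points) with exact 95% Poisson intervals (bars), by gene, distance and side, with Socs3 in red and Socs5 in blue, and the median of all peaks, 4.45, as a dashed line. Socs3 has 1 peak well above that line, at 7.02, and Socs5 has 5 of 7 above it.

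Other genes of the cytokine pathway were read by the same rule in 8 lists, again with no test. The lists were chosen with earlier results of these data known, and each is to be read against the shares that follow. Of 84 genes in all, 49 (58.3%) had a summit inside or within 100 kb, against 35.8% of protein-coding genes, 25 were the nearest protein-coding gene to one, against 11.0%, and 15 had one within 2 kb of an end, against 5.08%. Neighbouring genes shared peaks, so these counts are not of separate peaks.

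Among the ligands that signal through gp130 and their secreted partners, 7 of 10 had a peak, but only Lif and Clcf1 were the nearest coding gene to one. Lif, leukaemia inhibitory factor, had 3 peaks, the strongest 26.9 kb away with a fold of 6.71 (5.23 to 8.50), and its neighbour Osm was counted for the same peak. Clcf1 had a peak 435 bp from the gene with a fold of 6.42 (4.97 to 8.17), and Ebi3 had one at 69.5 kb, inside Sh3gl1 (6.07). Il6, Il11 and Cntf had none. Of the partner receptors 3 of 7 (42.9%) had one, near the 35.8% of all protein-coding genes. These were Il27ra (7.59, 322 bp from Samd1), Il6ra (4.85, inside the gene) and Osmr (3.52, inside the gene), while Lifr, Cntfr, Il11ra1 and Il31ra had none.

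All 4 JAK kinase genes had a peak. That of Tyk2 was strongest, 3.9 kb from the gene with a fold of 8.92 (6.43 to 12.1). Jak1 had one at 7.0 kb (4.57) and Jak2 one 92 bp from the gene (3.47), while the Jak3 peak (3.98) was 95.9 kb away, inside Slc27a1. Of the other STAT genes 3 of 6 had a peak, and none was the nearest coding gene to it: Stat2 (10.2, 4.3 kb from Rbms2), Stat5a (6.95) and Stat6 (3.26, inside Lrp1).

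Of the 6 elongin and ligase genes listed as partners of the SOCS box, 4 had a peak. Cul2 (4.70) and Eloc (3.53), the latter encoding elongin C, held one inside the gene. The Rbx1 peak (5.58) lay 46.9 kb away and the Elob peak (3.27) inside Srrm2. Cul5 and Rnf7, which build the ligase that SOCS proteins use, had none. Of the other brakes on the pathway, PIAS proteins and phosphatases, 4 of 10 (40.0%) had one, near the 35.8% of all protein-coding genes. These were Pias3 (7.18, inside Itga10), Ptpn6 (4.38), Ptpn1 (4.38) and Pias4 (3.74, inside Eef2). Pias3 was the only one of these 10 that was the nearest coding gene to a peak. Other receptors that signal through STATs had one in 7 of 14 cases, with Il2rg (9.09, 74 bp from Snx12), Ifnar1 and Ifngr2 (5.52, a shared peak inside Ifngr2) and Epor (5.44, inside Tmem205) highest.

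Known STAT3 target genes were the largest list, and 20 of 30 (66.7%) had a peak, against 35.8% of protein-coding genes. Of these 30, 14 were the nearest coding gene to one, against 11.0%, and 8 had one within 2 kb of an end, against 5.08%. The highest folds belonged to Mcl1, a survival factor (12.2, 9.51 to 15.5, nearest to Adamtsl4), Pim1, a kinase (9.67, 6.82 to 13.4, inside Tmem217), Zfp36, an mRNA decay factor (8.67, 6.44 to 11.4), and Fos (7.92, 5.49 to 11.1, nearest to Jdp2). These positions are of the strongest peak only. Mcl1 was the nearest coding gene to 4 of its 7 peaks, and Pim1, Zfp36 and Fos each to 2 of 3. Cebpb and Mcl1 had 7 peaks each, as many as Socs5. Birc5 had 6, most of them from the Socs3 group and including its strongest peak, and was the nearest coding gene to none of them. Lcn2, Timp1, Gfap and Cebpd were among the 10 with none.

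**Figure D5:**
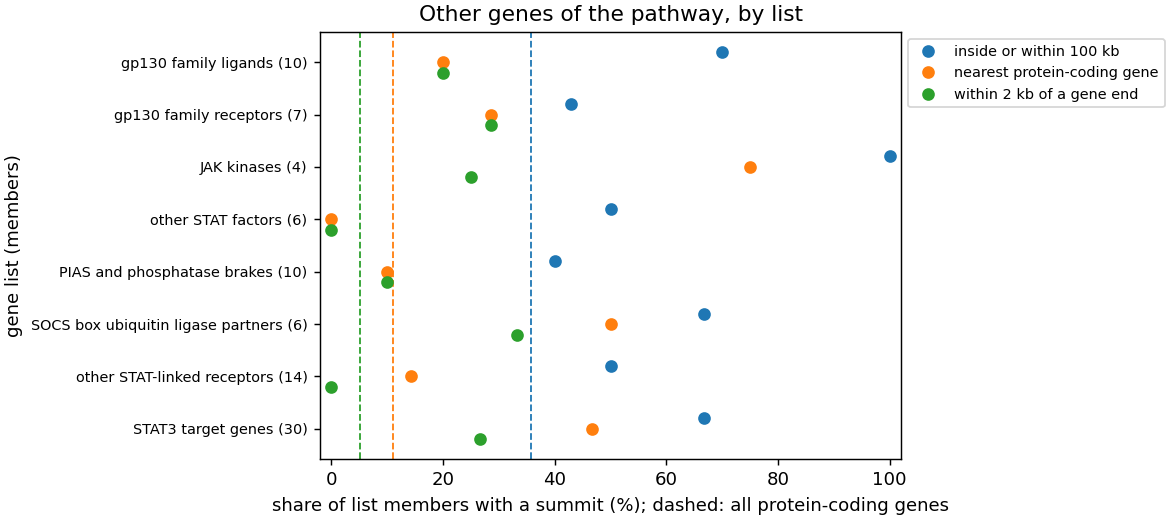
Share of each list's genes with a KMT2D summit by 3 rules (coloured points), with the share of all protein-coding genes under the same rule as a dashed line of the same colour. For STAT3 targets the points, from 20 of 30, 14 of 30 and 8 of 30 genes, all lie to the right of their lines. No test was made.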

How the data were processed

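Per the submitters' processing notes, reads were handled with Bowtie2, Picard and MACS2 on mm10. Their versions and settings are not stated in any source used. The deposited list gives, for each peak of the 1 ChIP library against the 1 input library, the authors' fold at the summit (the ratio of ChIP to background), −log10 p-value and −log10 q-value, and an unused score. Total reads are not given there.

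The ChIP fragments n and background b at each summit were solved from fold = (n + 1) / (b + 1) and the Poisson p-value, which gave a whole n within 0.001 of the deposited −log10 p for 3690 of 3738 peaks (98.7%), all 23 described here among them. Intervals are exact 95% Poisson intervals of n with b held fixed. PCR duplicates are not independent fragments, so intervals cover counting error only.

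Genes came from RefSeq GRCm38.p6, keeping 49595 genes, of which 21774 are protein-coding, on main chromosome sequences. All 84 listed pathway genes matched. Promoter windows run from 250 bases before to 50 after a start; where a gene had several, the first listed was used. The planned comparison of protein sequences was not run. The code that solves fragments and counts summits was checked on simulated peaks (Python 3.11.15, scipy 1.17.1); no comparison was tested statistically. Members, lists and rules were chosen with earlier results of these data known. Named genes were the 10 members, the genes nearest to their peaks, and up to 4 of highest fold in each list; others named by count, by the lack of a peak or as neighbours were chosen after their values were seen.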

Additional observations from a re-analysis of the deposited data

How the results depend on the processing

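No paired analysis was possible because there was 1 library of each kind. The number of the 10 genes with a peak, 8, became 5 with a window of 50 kb, 3 with 20 kb, 5 among peaks whose −log10 q reached the median, 4 among peaks whose fold reached the 75th percentile (here strict-q and strict-fold peaks) and 2 when each peak counted for its nearest protein-coding gene alone; Socs3 and Socs5 were among the genes in each. The share of all protein-coding genes fell alongside, from 35.8% to 24.9%, 15.7%, 21.2%, 12.4% and 11.0% in the same order. The 8 Socs3 peaks became 4 with 20 kb, 4 among strict-q peaks and 1 among strict-fold peaks. The 7 Socs5 peaks became 4 with 50 kb, 1 with 20 kb, 3 among strict-fold peaks and 4 with the nearest gene alone. The 49 pathway genes became 28 with 20 kb, 32 among strict-q peaks, 19 among strict-fold peaks and 25 with the nearest gene alone, of 84, to be read against the same shares (15.7%, 21.2%, 12.4% and 11.0%). The 1 gene with a summit at an end became 0 with 1 kb and among strict-fold peaks, and 2, adding Socs5, with 5 kb. Ordering the 8 genes by −log10 q left 2 in the same place, with Socs5 in place of Socs3 first. Within the 150 bases nearest the start, 1 promoter in place of 2 held TTCNNNGAA. Of 72 counts of single lists under alternatives, 22 moved by over 1.5 times. Windows of 200 kb, whole peaks, leaving out peaks at small RNA genes or with background above 20, and a window around the gene midpoint, chosen after seeing the data, kept the counts of genes, Socs3 and Socs5 peaks and pathway genes within 1.5 times, as far as each was run. The depth of 1 ChIP library limits what weak peaks can show.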
